A study of Mus musculus with 8 samples.

Results

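The 10 genes described here, Pign, Pigo, Pigg, Pigf, Piga, Pigk, Pigt, Pigv, Pigm and Pigs, encode enzymes and subunits that build the glycosylphosphatidylinositol (GPI) anchor or attach it to proteins. They were taken by symbol from the 23284 genes counted by RNA-seq in dorsal cortex of E15.5 embryos, and all 10 passed the filter on low counts that left 14696 genes for testing. The family was chosen by a measured value, the lower level of Pign in the ErbB4-/- libraries, so the values of Pign are given as a description with no test, and only the other 9 genes are tested. The samples were 4 ErbB4+/+ (WT) and 4 ErbB4-/- (ErbB4 KO) cortices of mice. The study's methods name C57BL/6 for the lines it made by gene editing, and give no strain for ErbB4+/+ or ErbB4-/- mice. ErbB4-/- mice survive because a transgene expresses ErbB4 in the heart under the α-MHC promoter, and each line was bred as a separate homozygous colony. RNA was extracted from cortex freed of ganglionic eminences and meninges. The sources do not say whether embryos shared a litter or were pooled, so p-values measure the spread between these libraries.

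A GPI anchor is a glycolipid assembled step by step in the membrane of the endoplasmic reticulum. N-acetylglucosamine is first joined to phosphatidylinositol, mannoses are then added from dolichol-phosphate-mannose, ethanolamine phosphates are placed on the mannoses, and a transamidase finally exchanges a signal peptide of the protein for the finished glycolipid. In the developing cortex the anchor holds contactins, glypicans, ephrin-A ligands and other adhesion and guidance proteins on the cell surface.

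Between 28205703 and 48871480 reads were counted per library, and the totals did not differ between genotypes beyond their spread (exact two-sided permutation test, n = 4 per genotype, p = 0.257). Levels are given as CPM, read counts relative to the library total, after TMM scaling. Erbb4 itself averaged 18.3 CPM (SD 6.81, n = 4) among ErbB4+/+ libraries and 22.4 CPM (SD 1.92, n = 4) among libraries labelled ErbB4-/-. Its log2 fold change was 0.28 (adjusted p = 0.812, edgeR), 0.06 without ErbB4+/+ replicate 1 and 0.48 without ErbB4+/+ replicate 3. The count of the targeted gene therefore did not check the labels. The genotypes below are those of the labels. ErbB4+/+ replicate 1 stood apart on the first principal component, at 38.9 against −15.5 to 6.07 for the other 7 libraries. Its log2 CPM deviated from the other libraries with exon length (Spearman's rank correlation of −0.525 across genes, against 0.0333 to 0.202 in the others). The sex of the embryos is not in the labels used here. Xist, the RNA of the inactive X chromosome, reached 983 to 1687 CPM in the first 3 ErbB4+/+ libraries, while replicate 4 had 3.48 CPM and the ErbB4-/- libraries 2.70 to 3.82 CPM. Y-linked Ddx3y was at 0.257 to 0.495, 76.4 and 78.7 to 80.9 CPM in the same order. By these genes, 3 of the 4 ErbB4+/+ libraries came from females and the other ErbB4+/+ library and all 4 ErbB4-/- libraries from males, so sex differed between the genotypes and 1 ErbB4+/+ library allows a comparison within a sex. Cortical projection neuron markers, such as Neurod6 and Tbr1, summed to 2762 to 3131 CPM in ErbB4+/+ and 2690 to 3057 in ErbB4-/- libraries, and interneuron and ganglionic eminence markers to 439 to 597 and 431 to 606. All 6 radial glia markers had log2 fold changes below 0 (median −0.21), and their sums were 1673 to 2230 in ErbB4+/+ and 1662 to 1844 in ErbB4-/- libraries. The 3 intermediate progenitor markers were also below 0 (median −0.14, sums of 496 to 609 and 432 to 558). None of these 9 progenitor markers passed the adjusted threshold in edgeR. An unadjusted p under 0.05 was reached by 4 of the 9, where 5.53% of all genes reached it. The part of these markers in the values below was not tested. The 5 microglia markers summed to 37.0 to 42.6 and 39.2 to 44.8 CPM, the 5 endothelial markers to 105 to 110 and 105 to 114, and the 5 meningeal markers to 8.47 to 9.92 and 8.70 to 14.2. The 4 oligodendrocyte lineage markers summed to 43.6 to 58.9 and 50.6 to 64.8. All 4 had log2 fold changes above 0 (median 0.21), where 49.2% of all genes were above 0. Of the 4, 2 had an unadjusted p under 0.05, where 5.53% of all genes did. Sox10 of this list did not overlap, with 1.99 to 3.79 CPM in ErbB4+/+ and 3.88 to 4.62 in ErbB4-/- libraries (log2 fold change 0.61, adjusted p = 0.81 in edgeR). Over all tested genes, 3.34% did not overlap in either direction and 1.86% did not with ErbB4-/- libraries higher. The 4 astrocyte markers summed to 29.2 to 40.4 and 28.8 to 40.1, mostly from Aldh1l1. Of the 3 tested, 2 were above 0, and Gfap was at 0.571 to 0.930 CPM and 0.858 to 2.07 CPM (log2 fold change 1.04, unadjusted p = 0.00454, adjusted p = 0.81 in edgeR). The 6 red blood cell markers summed to 31.7 to 56.1 and 20.7 to 34.8, with 3 of the 4 tested below 0 (median −0.69). Of the 4, 2 were at an unadjusted p under 0.05, where 5.53% of all genes were. Those 2 were the embryonic globin genes Hbb-y and Hba-x. Hbb-y was at 26.6 ± 9.14 and 8.20 ± 6.89 CPM (SD, n = 4, log2 fold change −1.72, adjusted p = 0.81 in edgeR). Hba-x was at 6.24 ± 0.955 and 2.71 ± 1.63 (log2 fold change −1.23, adjusted p = 0.740 in edgeR). Without ErbB4-/- replicate 4, the highest ErbB4-/- library for both, Hbb-y was at −2.47 (adjusted p = 0.0526 in edgeR). Hba-x was then at −1.71 and passed the threshold (adjusted p = 0.0351 in edgeR). Without any other single library, neither gene passed. The adult globin gene Hba-a1 was at 0 in all libraries. How reads that match several globin genes were counted is not given, so this 0 does not show that its RNA was absent. The part of these glial and red blood cell markers in the values below was not tested either. In bulk tissue, fewer cells of a type and less RNA per cell cannot be told apart.

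GENCODE places Pign between 107417716 and 107555585 on chromosome 1 (NCBIM37 or mm9 coordinates), transcribed from the minus strand and 38.3 Mb from Erbb4. The start given for Pign by RefSeq (GRCm38.p6) was found in NCBIM37 by exact match of the promoter sequence and lies further upstream, at 107560253. The gene 2310035C23Rik (Relch), read in the opposite direction, has its first base at 107560438. The 184 bases between both starts, chr1:107560254-107560437, are shown because the promoter of Pign is shared space with a second gene whose level can be compared. They are written 5′ to 3′ on the strand of Pign, ending at the base before its start, with capitals for the matches described next:

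Pign upstream segment: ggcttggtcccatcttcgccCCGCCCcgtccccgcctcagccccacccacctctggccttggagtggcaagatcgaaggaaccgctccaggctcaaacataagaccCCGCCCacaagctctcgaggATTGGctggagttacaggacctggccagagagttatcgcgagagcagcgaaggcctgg

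The segment has 63.6% G and C and 11 CpG dinucleotides. Of 5 motifs searched on both strands with no overlap between matches, it holds the GC box (GGGCGG, here as CCGCCC) beginning 164 and 78 bases before the start of Pign, and the CCAAT box (CCAAT, here as ATTGG) beginning 58 bases before it. In the 250 bases before the start, 32.7% of the 32851 RefSeq promoters of the mouse hold the GC box and 33.8% the CCAAT box. The TATA box (TATAAA), held by 12.4%, the ETS core (CCGGAAG), held by 6.91%, and the E box (CACGTG), held by 6.02%, have no match in this segment. RefSeq promoters were matched for 7 of the 10 genes (all but Pigg, Pigk and Pigm). In their 250 bases, Pigf holds 3 GC boxes, Pigs 1 and the downstream promoter of Pigv 3. Pigf and Pigt hold 1 CCAAT box each, and Piga and Pigs 2 each. The ETS core occurs once in the downstream promoter of Pigo, once in Pigt and 2 times in Pigf. Such matches describe the letters only.

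Pign encodes the transferase that puts ethanolamine phosphate on the first mannose of the anchor. Among the ErbB4+/+ cortices its level was 30.8 CPM for replicate 1, 35.1 for replicate 2, 42.0 for replicate 3 and 36.6 for replicate 4, resting on 864 to 1611 reads. Among the ErbB4-/- cortices it was 22.5 CPM for replicate 1, 23.1 for replicate 2, 21.2 for replicate 3 and 23.7 for replicate 4, resting on 745 to 1108 reads. Every ErbB4-/- library lay below every ErbB4+/+ library, with a gap from 23.7 to 30.8. On average this gave 36.1 ± 4.61 CPM against 22.6 ± 1.054 CPM (SD, n = 4 each), so the ErbB4-/- mean was 62.6% of the other, a log2 fold change of −0.68. These values chose the family. With each library left out in turn the log2 fold change was between −0.75 (without ErbB4+/+ replicate 1) and −0.60 (without ErbB4+/+ replicate 3, the highest library). The spread was unequal, with a coefficient of variation of 12.8% among ErbB4+/+ and 4.66% among ErbB4-/- libraries, where the median gene had 10.9% and 6.45%.

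**Figure D1:**
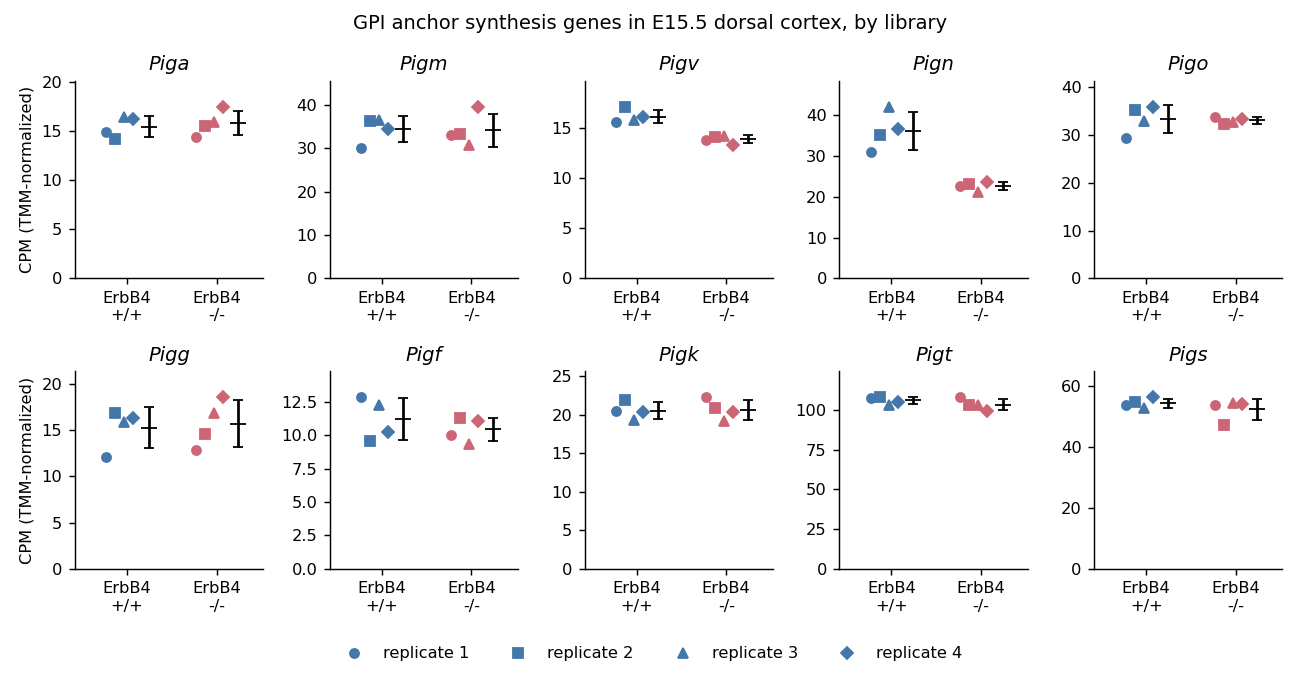
CPM after TMM scaling (vertical axes, starting at 0) of the 10 genes in each library of dorsal cortex, ErbB4+/+ in blue and ErbB4-/- in red, with 1 symbol per replicate and the mean ± SD (n = 4) in black. The libraries separate by genotype in Pign (30.8 to 42.0 against 21.2 to 23.7) and, by a smaller margin, in Pigv (15.6 to 17.1 against 13.3 to 14.2), and overlap in the other 8 genes.

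Among all genes tested, 4 (0.0272%) differed between the genotypes at an adjusted p under 0.05 in edgeR, 3 of them lower in ErbB4-/- libraries (0.0204%) and 1 higher (0.0068%). With relative log expression, upper-quartile scaling, the replicate block, the Xist covariate, or without ErbB4+/+ replicate 3 or ErbB4-/- replicate 1, 2 or 3, the number called lower was 0. None of the other 9 members was called by edgeR, by DESeq2 or by limma-voom, and 1 of them, Pigv, had an unadjusted p under 0.05, where 5.53% of all genes did. Of these 9 genes, 3 had log2 fold changes above 0 and 6 below, where 50.8% of all tested genes were below 0, with a median of −0.01 beside −0.0022 over all genes. Between 1 and 4 of the 9 were above 0 when single libraries were left out. Their 95% intervals reached from −0.38 at the lowest to 0.33 at the highest, which is 0.769 to 1.25 as a ratio. The groups did not overlap in 1 of the 9 genes, again Pigv, where 3.34% of all tested genes showed this in either direction, 1.48% with ErbB4-/- libraries lower and 1.86% with them higher.

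**Figure D2:**
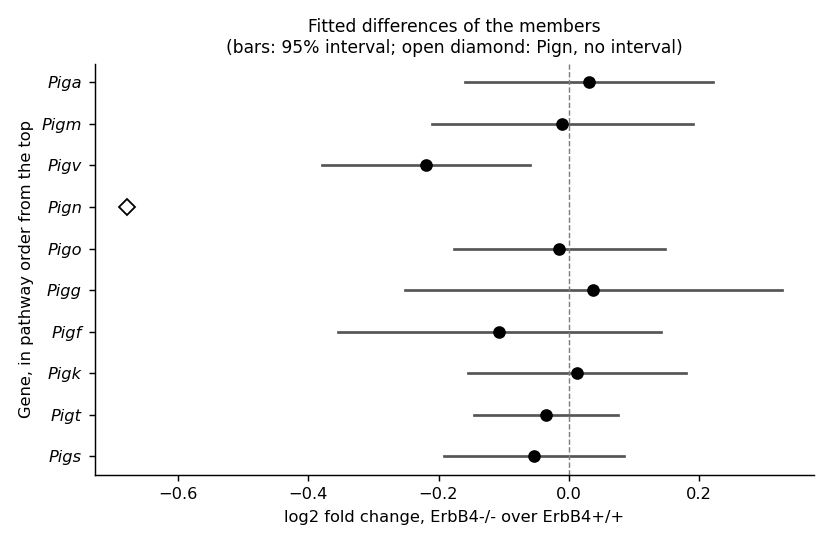
Log2 fold change of ErbB4-/- over ErbB4+/+ libraries (horizontal axis) for each gene in pathway order, with the 95% interval from edgeR's fit (n = 4 per genotype) for the 9 tested genes and Pign as an open diamond with no interval, since it chose the family. Pign sits at −0.68, Pigv at −0.22, and the other 8 genes between −0.11 and 0.04 with intervals that include 0.

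Ethanolamine phosphate is placed on the anchor by a trio of related enzymes, Pign on the first mannose, Pigg on the second and Pigo on the third, the latter pair with the partner subunit Pigf. Pigo, on chromosome 4 from 43030507 to 43038691, had 29.2, 35.2, 32.9 and 35.8 CPM in ErbB4+/+ replicates 1 to 4 and 33.8, 32.1, 32.7 and 33.3 in ErbB4-/- replicates 1 to 4. All ErbB4-/- values fell inside the ErbB4+/+ range. The log2 fold change was −0.01 (95% interval −0.18 to 0.15, adjusted p = 0.973 in edgeR). Pigg, on chromosome 5 from 108741628 to 108778374, had 12.1, 16.8, 15.9 and 16.4 CPM in ErbB4+/+ and 12.9, 14.6, 16.8 and 18.6 in ErbB4-/- libraries. Both genotypes had a replicate 1 near 12 to 13 CPM, and the upper values overlapped. Its log2 fold change was 0.04 (95% interval −0.25 to 0.33, adjusted p = 0.959 in edgeR), the widest interval of the 9.

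Pigf, on chromosome 17 from 87396596 to 87424746, had 12.8, 9.59, 12.2 and 10.2 CPM in ErbB4+/+ and 10.03, 11.3, 9.37 and 11.1 in ErbB4-/- libraries. The groups overlapped, with ErbB4+/+ replicate 1 the highest of all 8 and a log2 fold change of −0.11 (95% interval −0.35 to 0.14, adjusted p = 0.841 in edgeR). Pigf has 988 bases of merged exons, the fewest of the 10 genes, and 312 of them (31.6%) overlap exons of a gene on the opposite strand. The libraries did not keep the strand, and how reads from that stretch were counted is not given in the sources used here.

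Within each library, Pign can be set against its related enzymes, which removes any scaling of the library. The ratio of Pign CPM to Pigo CPM was 1.054, 0.996, 1.28 and 1.02 in ErbB4+/+ replicates 1 to 4 and 0.666, 0.718, 0.648 and 0.711 in ErbB4-/- replicates 1 to 4. The ratio of Pign to Pigg was 2.08 to 2.65 and 1.26 to 1.75. Neither ratio overlapped between the genotypes. Of the summed CPM of the 10 genes, Pign made up 9.41% to 12.1% in ErbB4+/+ and 6.68% to 7.32% in ErbB4-/- libraries. Summed over Pign, Pigo, Pigg and Pigf, the levels were 84.96 to 103 and 79.2 to 86.6 CPM, and these ranges overlapped at ErbB4+/+ replicate 1. These ratios and sums contain the values that chose the family and carry no test.

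**Figure D3:**
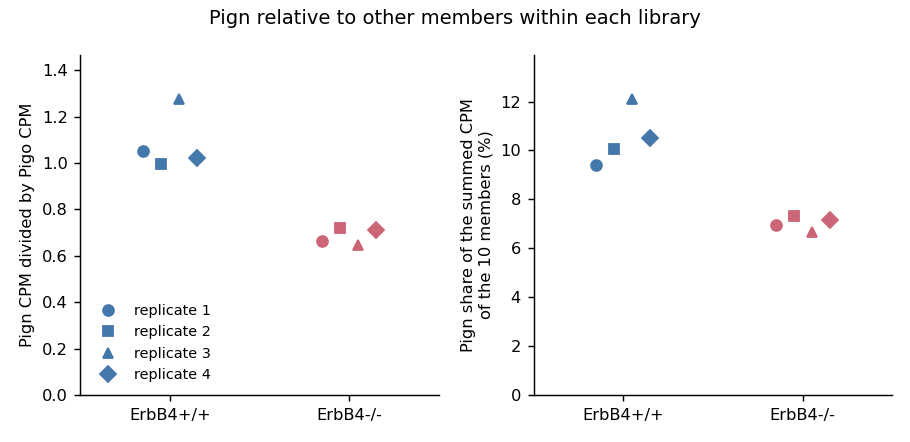
Left, Pign CPM divided by Pigo CPM, and right, the percentage of Pign in the summed CPM of the 10 genes, in each ErbB4+/+ (blue) and ErbB4-/- (red) library, with 1 symbol per replicate. The ErbB4+/+ ratios sit between 0.996 and 1.28 and the ErbB4-/- ratios between 0.648 and 0.718, and the shares do not overlap either.

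The mannoses on which these enzymes act are added by Pigm, which places the first, and Pigv, which places the second. Pigv, on chromosome 4 from 133216302 to 133228562, had 15.6, 17.1, 15.8 and 16.0 CPM in ErbB4+/+ replicates 1 to 4 and 13.8, 14.0, 14.2 and 13.3 in ErbB4-/- replicates 1 to 4. The lowest ErbB4+/+ library was 15.6 and the highest ErbB4-/- library 14.2, so the groups did not overlap (exact two-sided permutation test, n = 4 per genotype, p = 0.0286, the smallest possible). In the fit over all genes the log2 fold change was −0.22 (SE 0.073, 95% interval −0.38 to −0.06) with an unadjusted p of 0.0113 and an adjusted p of 0.81 in edgeR, so the difference did not pass the threshold. Its direction was lower in 4 of 4 ErbB4-/- libraries, and the adjusted p was between 0.520 and 1.00 across the alternatives. With the Xist level as a covariate the log2 fold change was −0.21 and the unadjusted p was 0.121. Pigm, like Pign on chromosome 1 (174306662 to 174314230) and 66.8 Mb from it, had 30.0, 36.3, 36.5 and 34.5 CPM in ErbB4+/+ and 32.9, 33.3, 30.7 and 39.5 in ErbB4-/- libraries. The extremes of both groups interleaved, and the log2 fold change was −0.01 (95% interval −0.21 to 0.19, adjusted p = 0.985 in edgeR).

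The pathway opens with Piga, the catalytic subunit that transfers N-acetylglucosamine to phosphatidylinositol. Piga had 14.9, 14.2, 16.4 and 16.2 CPM in ErbB4+/+ and 14.4, 15.51, 15.9 and 17.5 in ErbB4-/- libraries, with overlapping groups and a log2 fold change of 0.03 (95% interval −0.16 to 0.22, adjusted p = 0.945 in edgeR). Piga is the single X-linked member, from 160857725 to 160871848. Replicate 4 of ErbB4+/+, which shares the low Xist and high Ddx3y levels of the ErbB4-/- libraries, had 16.2 CPM of Piga, 16.0 of Pigv and 36.6 of Pign, the last 2 above all ErbB4-/- libraries. With the Xist level as a covariate the log2 fold change of Pign was −0.67.

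The transamidase that ends the pathway is represented by Pigk, its catalytic cysteine protease, and by the subunits Pigt and Pigs. Pigk, on chromosome 3 from 152377064 to 152643372, had 20.5, 21.9, 19.3 and 20.3 CPM in ErbB4+/+ and 22.3, 20.8, 19.1 and 20.4 in ErbB4-/- libraries (log2 fold change 0.01, 95% interval −0.16 to 0.18, adjusted p = 0.980 in edgeR), and 108 of its exon bases overlap St6galnac5 on the opposite strand. Pigt, on chromosome 2 from 164323020 to 164333801, ran from 103 to 108 CPM in ErbB4+/+ and from 99.1 to 108 in ErbB4-/- libraries (log2 fold change −0.04, 95% interval −0.14 to 0.07, adjusted p = 0.877 in edgeR), the narrowest interval of the 9. Pigs, on chromosome 11 from 78141917 to 78156284, ran from 52.9 to 56.4 and from 47.3 to 54.4 CPM (log2 fold change −0.05, 95% interval −0.19 to 0.08, adjusted p = 0.853 in edgeR). All 3 genes overlapped between the genotypes. With the remaining subunits Gpaa1 and Pigu, the transamidase summed to 255 to 274 CPM in ErbB4+/+ and 255 to 269 in ErbB4-/- libraries.

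Levels of different genes were compared as CPM per kilobase of merged GENCODE exons, a scale that depends on an annotation the authors may not have used. On this scale Pigt was highest at 27.2 ± 0.822 (SD over all 8 libraries), followed by Pigs at 21.4 ± 1.07 and Pigf at 11.0 ± 1.26, and the range of each was separate from that of the next gene in the order, while the ranges of Pigf and Pign overlapped. Pigo (7.74 ± 0.471) and Pign (6.80 ± 1.82) overlapped, as did Pign and Pigm (4.52 ± 0.418). Pigv (3.58 ± 0.315), Pigg (3.39 ± 0.478), Piga (2.45 ± 0.172) and Pigk (2.20 ± 0.119) closed the order, each overlapping its neighbour. By genotype, the level of Pign was 8.36 ± 1.07 per kilobase in ErbB4+/+ and 5.23 ± 0.244 in ErbB4-/- libraries, which is above the mean of Pigo in the former (7.78 ± 0.697) and below it in the latter (7.70 ± 0.166).

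The other genes of the pathway were taken from a list of 33 genes, of which 31 were found and tested. They comprise further subunits of the first step, de-N-acetylation and mannosylation enzymes, dolichol-phosphate-mannose supply, transamidase subunits, and remodelling and export factors. None was called by edgeR, DESeq2 or limma-voom. None had an unadjusted p under 0.05, where 5.53% of all genes did, and none separated by genotype, where 3.34% did. With the Xist covariate, or without ErbB4+/+ replicate 1, 3 or 4, 1 gene had an unadjusted p under 0.05. In the fit over all libraries 13 were above 0 and 18 below, with a median log2 fold change of −0.04 and a range from −0.22 to 0.22. Without ErbB4-/- replicate 2 the median was 0.0022, with 16 above 0 and 15 below. The gene with the highest CPM of each group, not scaled to length, is given here. These were Pigq for the first step (63.8 ± 1.66 CPM in ErbB4+/+ and 65.3 ± 1.73 in ErbB4-/-), Pigx, the partner of Pigm, for de-N-acetylation and mannosylation (37.7 ± 4.47 and 38.1 ± 0.929), and Dhdds, which makes the dolichol backbone, for dolichol-phosphate-mannose supply (78.8 ± 5.38 and 76.0 ± 4.36). For the other transamidase subunits it was Gpaa1 (49.8 ± 3.51 and 47.5 ± 0.851), and for remodelling and export Pgap1, which removes the acyl chain from inositol (188 ± 31.3 and 189 ± 6.83). All values are mean ± SD with n = 4.

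Genes of related pathways were compared next. Of 14 genes of dolichol-linked N-glycan assembly, 9 were above 0 and 5 below (median 0.03), and none was called. Alg3, a mannosyltransferase of that pathway, did not overlap between the genotypes, with 16.6 ± 1.34 CPM in ErbB4+/+ and 14.4 ± 0.574 in ErbB4-/- libraries (SD, n = 4, log2 fold change −0.20, adjusted p = 0.81 in edgeR). That is 1 of 14 genes, or 7.14%, where 3.34% of all genes did not overlap. Alg2 had the highest CPM, at 235 ± 2.80 and 245 ± 5.93. A list of 9 genes covered the making and the further conversion of phosphatidylethanolamine, the donor of ethanolamine phosphate. Of these, 5 were above 0 and 4 below (median 0.02, −0.01 without replicate 2 of ErbB4+/+ and 0.06 without replicate 2 of ErbB4-/-). The highest CPM was that of the ethanolamine kinase gene Etnk1 (181 ± 22.4 and 195 ± 6.65). No gene of this list was called by edgeR or had an unadjusted p under 0.05, where 5.53% of all genes had such a p.

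The proteins that carry the anchor were covered by a list of 70 genes, 61 of them tested. Their log2 fold changes were above 0 in 44 and below in 17, with a median of 0.08, which is 72.1% above 0 beside 49.2% and a median of −0.0022 for all genes. At an unadjusted p under 0.05 there were 11, all higher in ErbB4-/- libraries, where 5.53% of all genes passed, while no gene passed the adjusted threshold in edgeR or limma-voom, and DESeq2 called 1, Opcml. None separated by genotype, where 3.34% of all genes did. Cd24a had the highest CPM, at 1128 ± 106 CPM in ErbB4+/+ and 1140 ± 51.8 in ErbB4-/- libraries. Opcml, a cell adhesion gene of the IgLON family, had 63.9 ± 6.09 and 85.4 ± 10.7 CPM (log2 fold change 0.42, adjusted p = 0.589 in edgeR), and Thy1, a surface glycoprotein of neurons, had 13.1 ± 1.599 and 16.5 ± 1.604 (0.335, adjusted p = 0.81 in edgeR), both named after their values were seen. With single libraries left out the median was between 0.03 with 38 of 61 genes above 0 (ErbB4+/+ replicate 3 left out) and 0.11 with 42 of 61 (ErbB4-/- replicate 4 left out), and with the Xist covariate it was 0.09 with 40 of 61. The count of 11 was 6 without ErbB4+/+ replicate 3, ErbB4+/+ replicate 4 or ErbB4-/- replicate 3, 7 without ErbB4-/- replicate 2, and 3 with the Xist covariate, and it stayed at 11 without ErbB4+/+ replicate 1. It was 14, with 1 of them lower, without ErbB4+/+ replicate 2 and 15, with 2 lower, without ErbB4-/- replicate 4. The largest value, 2.76 for Folr1, came from ErbB4-/- replicate 3 with 9.09 CPM, where the other 7 libraries had 0.107 to 0.706, and was −0.23 without that library.

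**Figure D4:**
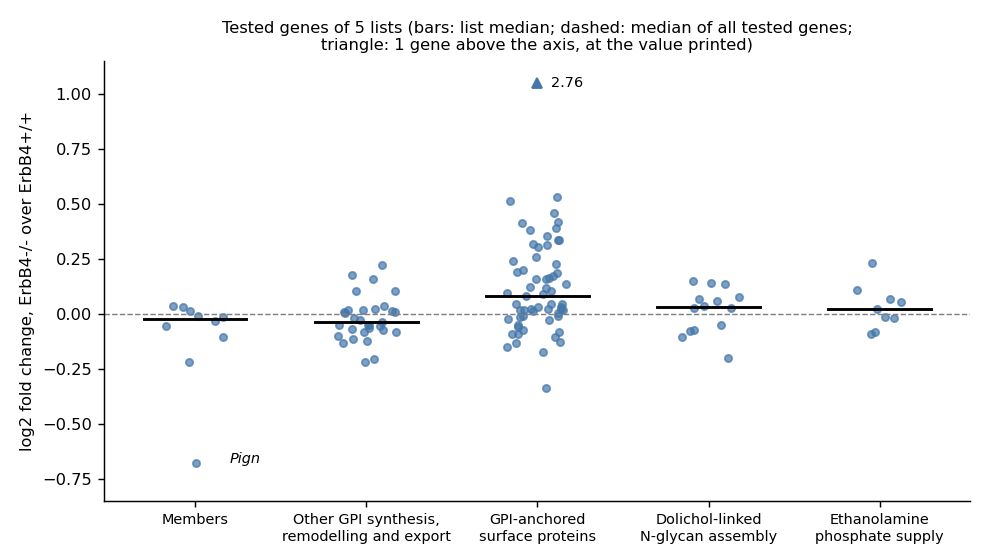
Log2 fold change of ErbB4-/- over ErbB4+/+ libraries (vertical axis) for each tested gene of 5 lists, with a bar at each list's median and a dashed line at the median of all tested genes (−0.0022). Pign, at −0.68, is the lowest of the plotted genes, the 31 other GPI genes lie between −0.22 and 0.22, and the GPI-anchored proteins have their median at 0.08 with Folr1 above the axis at 2.76.

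The 5 tested genes nearest to Pign on each side were examined in the same fit. The divergent gene 2310035C23Rik had 70.1, 83.2, 79.1 and 74.4 CPM in ErbB4+/+ replicates 1 to 4 and 82.7, 80.9, 86.3 and 83.8 in ErbB4-/- replicates 1 to 4. These groups overlapped, and the log2 fold change was 0.12 (95% interval −0.02 to 0.26, adjusted p = 0.81 in edgeR) and 0.08 without ErbB4+/+ replicate 1, so the gene on the other side of the upstream segment was not lower in ErbB4-/- libraries. On the other side, Rnf152, a ubiquitin ligase gene 164 kb away, had 58.0 ± 12.6 and 72.3 ± 2.01 CPM (SD, n = 4) in ErbB4+/+ and ErbB4-/- libraries (log2 fold change 0.32, adjusted p = 0.81 in edgeR), with ErbB4+/+ replicate 1 lowest at 40.8 CPM and a log2 fold change of 0.18 without it. Bcl2, an inhibitor of apoptosis 879 kb away, did not overlap between the genotypes, as 3.34% of all genes did not, with 45.3 to 53.8 CPM in ErbB4+/+ and 54.9 to 65.2 in ErbB4-/- libraries (log2 fold change 0.20, adjusted p = 0.81 in edgeR). Tnfrsf11a, 122 kb away, was at or under 1.027 CPM in all libraries, with a log2 fold change of −0.99 and the same adjusted p. The log2 fold changes of Cdh20, Zcchc2 and Phlpp1 were 0.09, 0.04 and −0.05, and those of Cntnap5b, Pam and B230216N24Rik, all more than 5 Mb away, were 0.06, 0.02 and 0.04. With single libraries left out, Cdh20 ranged from 0.04 to 0.13, Zcchc2 from −0.03 to 0.11, Phlpp1 from −0.10 to −0.02, Cntnap5b from −0.13 to 0.25, Pam from −0.01 to 0.04 and B230216N24Rik from −0.06 to 0.18. None of these 10 genes passed the adjusted threshold in edgeR, and 3 had an unadjusted p under 0.05, where 5.53% of all genes did.

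**Figure D5:**
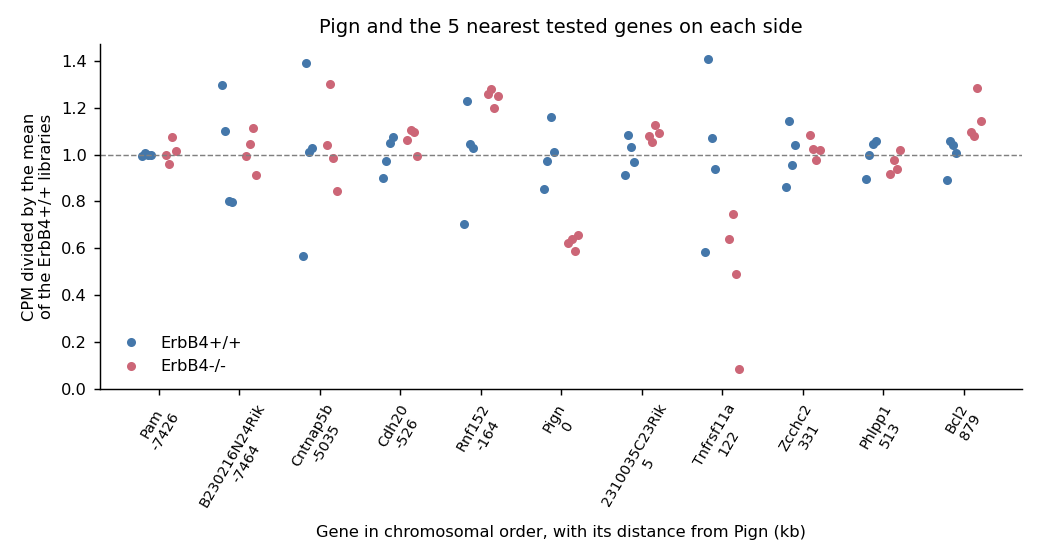
CPM of Pign and the 5 nearest tested genes on each side in each library, divided by the mean of the ErbB4+/+ libraries of that gene (vertical axis), in chromosomal order with the distance from Pign in kb. The ErbB4-/- libraries (red) of Pign lie below all its ErbB4+/+ libraries (blue), while those of 2310035C23Rik overlap, and Tnfrsf11a rests on at most 1.027 CPM.

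The genes whose log2 CPM followed that of Pign most closely over the 8 libraries were Myzap (Pearson's r = 0.933), Galr2 (0.926), Ubxn4 (0.916), Osgepl1 (0.911) and Tmem39a (0.908). All 5 were lower on average in ErbB4-/- libraries, with log2 fold changes of −0.40, −0.79, −0.12, −0.09 and −0.11, so the genotype is part of each correlation. After centring within each genotype, the correlations were 0.439, 0.139, 0.845, 0.663 and 0.765. Myzap and Galr2 were low, at 1.66 and 0.806 CPM in ErbB4+/+ libraries. Ubxn4 and Osgepl1 lie on chromosome 1, as Pign and Erbb4 do, Galr2 on chromosome 11 and Tmem39a on chromosome 16. Myzap had no position. The points are 8 libraries that share genotype and library composition, and no test was made.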

How the data were processed

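Polyadenylated RNA of 8 cortices was sequenced as single 50-nucleotide reads without strand. Per the labels and the study's methods, HISAT placed the reads on mm9 and HTSeq assigned them to genes. The authors' deposited files hold raw counts, 1 value per gene symbol. The annotation, counting mode and versions are not given in the sources used here. The authors' table of their own comparison (fold changes and p-values from DESeq2) was not used.

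The quasi-likelihood test of edgeR 4.0.16 (R 4.3.3; glmQLFit, glmQLFTest) was applied after TMM scaling to genes kept by filterByExpr (count of 10, total of 15 or more). P-values were adjusted by Benjamini-Hochberg over 14696 genes, with a threshold of 0.05. The SE is the log2 fold change over the root of F, and intervals are 95%. Log2 CPM has a prior count of 2. Positions come from GENCODE vM1 (NCBIM37), matched by symbol, and 443 tested genes had none. Depth was 28205703 to 48871480 counts per library, and members had at least 299 reads in every library.

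Alternatives were DESeq2 1.42.0, limma-voom 3.58.1, other scalings and filters, each library left out, a covariate for Xist and a block for the replicate number. In simulated counts, 200 genes with a mean above 5 CPM were changed 2-fold. Of these, 98.5% were recovered, with 10 false calls among 14599 genes. Smaller changes, such as those fitted for the tested members, were not simulated. Figures used matplotlib 3.10.9. Named genes are the members, Erbb4, Xist, pathway list genes that were called, did not overlap or had the highest CPM of a list, the 5 tested genes nearest to Pign on each side and the 5 most correlated with it. Thy1, Opcml, Folr1, Sox10, Gfap, Aldh1l1, Hbb-y, Hba-x and Ddx3y were named after their values were seen, and Neurod6, Tbr1, Hba-a1 and St6galnac5 for context. The members and lists were chosen with earlier results of these data known.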

Additional observations from a re-analysis of the deposited data

Results flagged for a closer look

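Pigs had 47.3 CPM in ErbB4-/- replicate 2, set off from 53.9 to 54.4 in the other 3 ErbB4-/- libraries by more of the group's range than Dixon's test allows at the 95% level. This was 1 of the 22 groups of 4 libraries examined over the 10 genes and Erbb4, and chance flags about 1 in 20. Without that library the log2 fold change of Pigs was −0.01.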

How the results depend on the processing

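The log2 fold change of Pign stayed between −0.75 and −0.60 under all alternatives run, and Pigt, Pigv and Pigs stayed below 0. The count of all genes called was 4, but 23 with DESeq2 and 5 with no filter on low counts. It was 1 with relative log expression, upper-quartile scaling, the replicate block or the Xist covariate. With single libraries left out it was 1 to 13. In ErbB4+/+, dropping replicate 1 gave 6, replicate 2 gave 2 and replicate 4 gave 13. In ErbB4-/-, dropping replicate 4 gave 2. Dropping any other library gave 1. No alternative called any of the other 9 members, and the listed pathway genes held 0 calls except 1 with DESeq2. Values near 0 changed sign. With the Xist covariate Pigg was at −0.0252, Pigf at 0.0219, Piga at −0.0292 and Pigm at 0.0055. With single libraries left out, Pigo ranged from −0.0708 to 0.0226, Pigg from −0.0600 to 0.124, Piga from −0.0229 to 0.0742, Pigk from −0.0271 to 0.0473 and Pigm from −0.0909 to 0.0371. Pigf ranged from −0.17 to −0.04 (replicates 2 and 1 of ErbB4+/+ left out, respectively), Pigt from −0.06 to −0.02 and Pigs from −0.07 to −0.01. The cause was not tested. Whether same-numbered libraries share more than a number is not given in the sources used here. Correlations of their deviations were 0.0837, 0.135, 0.0476 and 0.0236 for replicates 1 to 4. Replicates 1 and 2 of ErbB4+/+ correlated best with the same-numbered ErbB4-/- library, and replicates 3 and 4 with another. With the replicate block the log2 fold change of Pign was −0.67. Each member had at least 299 reads per library, and the 95% intervals give the precision that 4 libraries per genotype allowed.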
